A study of Mus musculus with 10 samples.

Results

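Metallothioneins, hepcidin and the genes of liver iron handling were examined in bulk liver RNA-seq of 10 mice, with 1 library per mouse. The 10 genes were taken by name from the 41388 genes listed in every library, and all 10 passed the expression filter that left 13444 genes for testing. They are Mt1 and Mt2 (metallothioneins), Hamp and Hamp2 (hepcidins), Tfrc, Trf and Slc39a14 (uptake and transport), Fth1 and Ftl1 (storage) and Slc40a1 (export). All mice were littermates of about 12 weeks, labelled as strain C57B/6J, and all carried NAMPT fl/fl alleles, so that WT mice here are floxed mice without cre. NAMPT LKO mice also carried Albumin-cre, which deletes Nampt, the NAD-salvage enzyme gene, in hepatocytes and leaves it in the other cells of the liver. Per the labels, 24 h of fasting preceded collection in 5 NAMPT LKO Fasting and 3 WT Fasting mice, and the 2 WT Refed mice were fasted for 22 h and then refed for 2 h. The study's text instead describes random-fed controls and a shorter fast. WT Fasting vs. WT Refed therefore sets continued fasting against a short refeeding after a fast, and no unfasted liver was analysed here. No refed NAMPT LKO liver was analysed either, and NAMPT LKO Fasting vs. WT Refed joins genotype and feeding.

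Metallothioneins are small cysteine-rich proteins that bind zinc and copper, and their genes are known to be switched on by the zinc-sensing factor MTF1, by glucocorticoids and by inflammatory signals. Hepcidin is a peptide hormone that hepatocytes release when iron or inflammation is high, and it acts by removing the iron exporter ferroportin (Slc40a1) from cell membranes. Iron reaches hepatocytes on transferrin (Trf) through transferrin receptor 1 (Tfrc) and in unbound form through ZIP14 (Slc39a14), and is stored in shells of ferritin heavy (Fth1) and light (Ftl1) chains. Iron-regulatory proteins bind hairpins called iron-responsive elements in the messages of several of these genes.

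The control sequences of these genes are shown because the elements marked in them are known inputs to these genes. The 250 bases before each start site, and for the metallothioneins the next 30, were taken from the RefSeq table of promoters (GRCm38.p6), in which 7 of the 10 genes had an entry. Capitals in the metallothionein promoters mark the metal response element core, searched as TGCACNC or TGCGCNC on both strands.
Mt1, chr8:94178839-94179118, plus strand: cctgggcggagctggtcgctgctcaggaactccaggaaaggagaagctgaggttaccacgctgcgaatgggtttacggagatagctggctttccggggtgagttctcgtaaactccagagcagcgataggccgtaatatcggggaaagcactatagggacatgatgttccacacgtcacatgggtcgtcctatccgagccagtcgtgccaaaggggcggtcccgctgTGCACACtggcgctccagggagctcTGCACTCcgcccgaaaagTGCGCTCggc
Mt2, chr8:94172368-94172647, plus strand: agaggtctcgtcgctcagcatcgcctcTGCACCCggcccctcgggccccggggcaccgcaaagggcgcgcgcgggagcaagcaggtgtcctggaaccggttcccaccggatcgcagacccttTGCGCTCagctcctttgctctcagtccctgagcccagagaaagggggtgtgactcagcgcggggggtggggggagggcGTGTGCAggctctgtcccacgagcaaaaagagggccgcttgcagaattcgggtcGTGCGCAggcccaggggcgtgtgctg
Mt1 held 3 matches and Mt2 held 4 in the full window of 300 bases. Of the 32851 promoters in the table, 25.7% held at least 1 match, 1.97% held 3 or more and 0.517% held 4 or more.

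In the hepcidin promoters, capitals mark the BMP response element GGCGCC, through which iron signals reach the gene, and the STAT site TTCNNNGAA, through which interleukin-6 does.
Hamp, chr7:30944030-30944279, minus strand: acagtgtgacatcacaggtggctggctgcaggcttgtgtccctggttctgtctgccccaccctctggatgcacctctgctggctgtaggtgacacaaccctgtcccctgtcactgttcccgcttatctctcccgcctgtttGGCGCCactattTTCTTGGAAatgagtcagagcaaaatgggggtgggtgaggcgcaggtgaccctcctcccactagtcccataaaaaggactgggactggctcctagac
Hamp2, chr7:30924182-30924431, minus strand: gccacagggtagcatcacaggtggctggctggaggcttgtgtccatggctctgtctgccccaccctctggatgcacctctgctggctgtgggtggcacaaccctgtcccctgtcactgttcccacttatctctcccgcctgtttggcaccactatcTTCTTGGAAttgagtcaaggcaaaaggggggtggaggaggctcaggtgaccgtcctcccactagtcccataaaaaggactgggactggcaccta
The windows of Hamp and Hamp2 were identical at 276 of 297 aligned bases (92.9%). Both held the STAT site TTCTTGGAA, 97 bases before the start in Hamp and 94 in Hamp2. Hamp alone of the pair held GGCGCC, 109 bases before its start. Of all promoters, 11.9% held GGCGCC and 8.3% held a TTCNNNGAA match on either strand. The elements were not particular to one family, since 1 of the 2 Tfrc windows held GGCGCC and 2 overlapping matches to the metal response element core. A match describes these letters and is not evidence that a factor binds.

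Iron-responsive elements were searched in 58797 protein-coding GENCODE transcripts of GRCm38 as a C, 5 bases, the loop CAGTGN and 5 bases that can pair with those before the loop. In the sites below, capitals mark the unpaired C and the loop.
Fth1, 5′ UTR, chr19:9982732-9982760, plus strand: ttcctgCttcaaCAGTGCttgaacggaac
Ftl1, 5′ UTR, chr7:45459779-45459807, minus strand: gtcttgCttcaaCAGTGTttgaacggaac
Slc40a1, 5′ UTR, chr1:45925465-45925493, minus strand: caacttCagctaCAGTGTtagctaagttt
Tfrc, 3′ UTR, chr16:32631219-32631247, plus strand: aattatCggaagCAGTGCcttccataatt
Tfrc, 3′ UTR, chr16:32631710-32631738, plus strand: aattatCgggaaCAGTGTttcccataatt
Tfrc held 4 such sites in its 3′ UTR, of which 2 are shown, where this element is known to protect the message from decay when iron is low. Fth1, Ftl1 and Slc40a1 each held 1 in the 5′ UTR, where it is known to hold back translation instead, so that their message levels need not follow iron. Of the transcripts searched, 0.102% held a match in the 5′ UTR, 0.344% held one in the 3′ UTR, and 1 transcript (0.0017%) held 4 or more there.

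Total counts per library ranged from 30603080 to 43434139. Levels are given as TMM-normalized CPM, read counts scaled to a library total that was adjusted for composition, unless RPKM is named. The targeted gene Nampt averaged 13.2 ± 1.49 CPM over the 5 NAMPT LKO Fasting livers, against 92.4 ± 42.3 CPM over the 3 WT Fasting livers (mean ± SD). Hepatocyte markers (Alb, Apoa1, Ttr, Cyp2e1, Serpina1c) summed to between 63803 and 114164 CPM in every liver, and neutrophil markers to between 0.454 and 2.18 CPM. Kupffer cell markers summed to 178 and 223 CPM in WT Refed, 232 to 462 CPM in WT Fasting and 159 to 358 CPM in NAMPT LKO Fasting livers, and 0 of 7 were called in any comparison. Over all livers, endothelial markers summed to 154 to 204 CPM, stellate cell markers to 188 to 268 CPM and erythroid markers to 333 to 1405 CPM. Of these, only the endothelial gene Kdr was called, in NAMPT LKO Fasting vs. WT Refed (log2 fold change 0.37, edgeR QL adjusted p = 0.0475), beside the 11.2% called of all genes. Of the 6 exocrine pancreas markers, Prss2 and Amy2a5 were at 0 counts in every library, and the 1 that was tested, Cela1, was between 6.48 and 7.17 CPM in WT livers and between 3.62 and 5.35 CPM in NAMPT LKO Fasting livers (log2 fold change -0.59 against WT Fasting and -0.66 against WT Refed, edgeR QL adjusted p = 0.761 and 0.0363, the latter call lost, among other fits, without either WT Refed liver, without mouse 2 or 3 of NAMPT LKO Fasting or mouse 1 or 2 of WT Fasting, with no expression filter and in a fit of these groups alone). In bulk tissue, fewer cells of a type and less RNA per cell cannot be told apart. The livers of 2 NAMPT LKO mice and of WT Fasting mouse 3 stood apart from the others. In NAMPT LKO mouse 3 the 21 acute phase genes summed to 41965 CPM, against 17504 to 23262 CPM in the other 9 livers. In NAMPT LKO mouse 5 the mitochondrial genome took 21.1% of counts, against 7.42% to 12.9% in the others. WT Fasting mouse 3 had the lowest such share (7.42%, against 10.4% or more elsewhere). Its Kupffer cell markers summed to 462 CPM, against 233 and 232 CPM in the other WT Fasting livers.

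Compared per length, the members spanned a wide range of levels. In WT Fasting livers Fth1 had the highest mean, at 2486 ± 102 RPKM (SD, n = 3), followed by Hamp at 1723 ± 1431 RPKM and Ftl1 at 1268 ± 183 RPKM. Hamp ranged from 677 to 3354 RPKM there, across the levels of both ferritin chains, so the order of these 3 genes is not set beyond their spread. Mt1 at 330 ± 74.8 RPKM, Mt2 at 154 ± 77.6 RPKM, Trf at 152 ± 16.6 RPKM and Hamp2 at 71.9 ± 8.01 RPKM came next. The range of Mt2 (75.3 to 230 RPKM) overlapped those of Trf (133 to 165 RPKM) and Hamp2 (62.6 to 76.9 RPKM). Mt2 could therefore not be ordered against either. Slc40a1 at 11.8 ± 0.782 RPKM and Slc39a14 at 11.6 ± 2.25 RPKM could not be ordered, and Tfrc was the lowest at 2.99 ± 0.0708 RPKM. In WT Refed livers the metallothioneins stood lower in the order, with Mt1 at 65.6 ± 0.869 RPKM and Mt2 at 21.4 ± 2.71 RPKM (SD, n = 2), both under Trf and Hamp2.

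**Figure D1:**
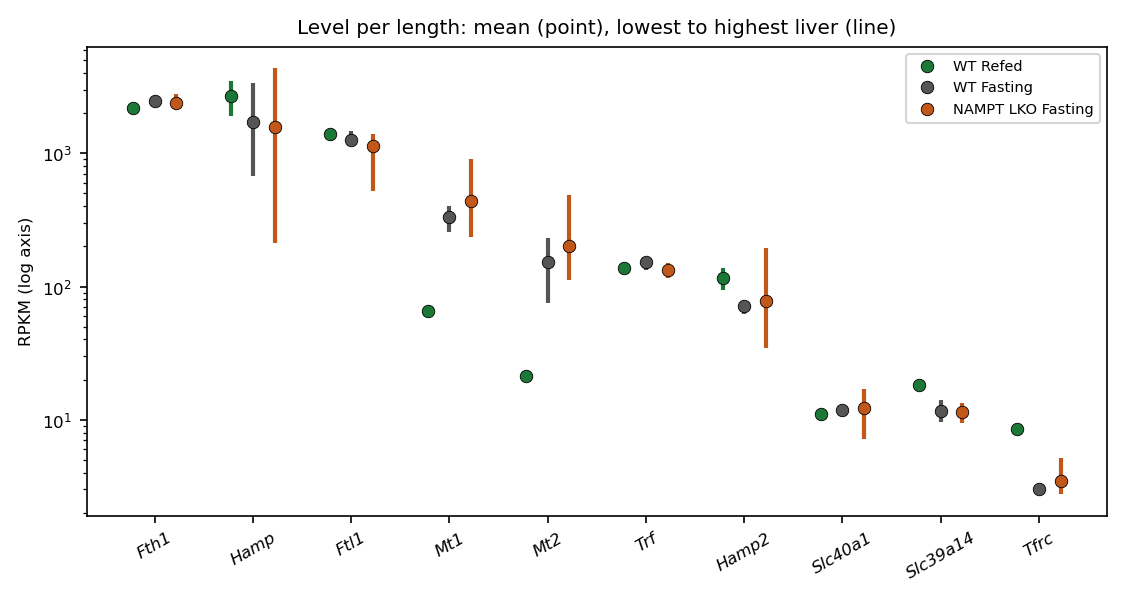
Level of each gene per length in RPKM (log axis) in WT Refed (n = 2), WT Fasting (n = 3) and NAMPT LKO Fasting (n = 5) livers, with points for group means and lines from the lowest to the highest liver. Hamp spans 214 to 4357 RPKM in NAMPT LKO Fasting livers, and Mt1 and Mt2 are the genes whose refed means lie farthest below their fasting means.

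The metallothioneins were higher and transferrin receptor was lower in WT Fasting than in WT Refed livers. Of the 10 members, 3 were called in WT Fasting vs. WT Refed (Benjamini-Hochberg adjusted p of at most 0.05 in the quasi-likelihood, or QL, test of edgeR), with Mt1 and Mt2 higher and Tfrc lower, while 7.04% of all genes tested were called, 2.68% as higher and 4.36% as lower. At an unadjusted p under 0.05, 4 members passed, against 22.3% of all genes. In 6 of the 10 the groups did not overlap, against 49.7% of all genes tested. In NAMPT LKO Fasting vs. WT Refed, 4 members were called and 4 had an unadjusted p under 0.05, against 11.2% (4.65% higher, 6.58% lower) and 26.1% of all genes, and these were the same 3 genes in the same directions and Slc39a14, which was lower. The groups did not overlap for these 4, against 33.5% of all genes. These comparisons share the WT Refed livers. In NAMPT LKO Fasting vs. WT Fasting, 0 of 10 members were called in the edgeR QL test, 0 had an unadjusted p under 0.05, and 0 were called by edgeR's exact test, DESeq2 or limma's voomWithQualityWeights. Over all genes tested, 0.00744% were called there, 6.03% had an unadjusted p under 0.05, and 3.99% had groups that did not overlap, which 0 members had. The only gene called there in the edgeR QL test was Nampt, the deleted gene itself.

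**Figure D2:**
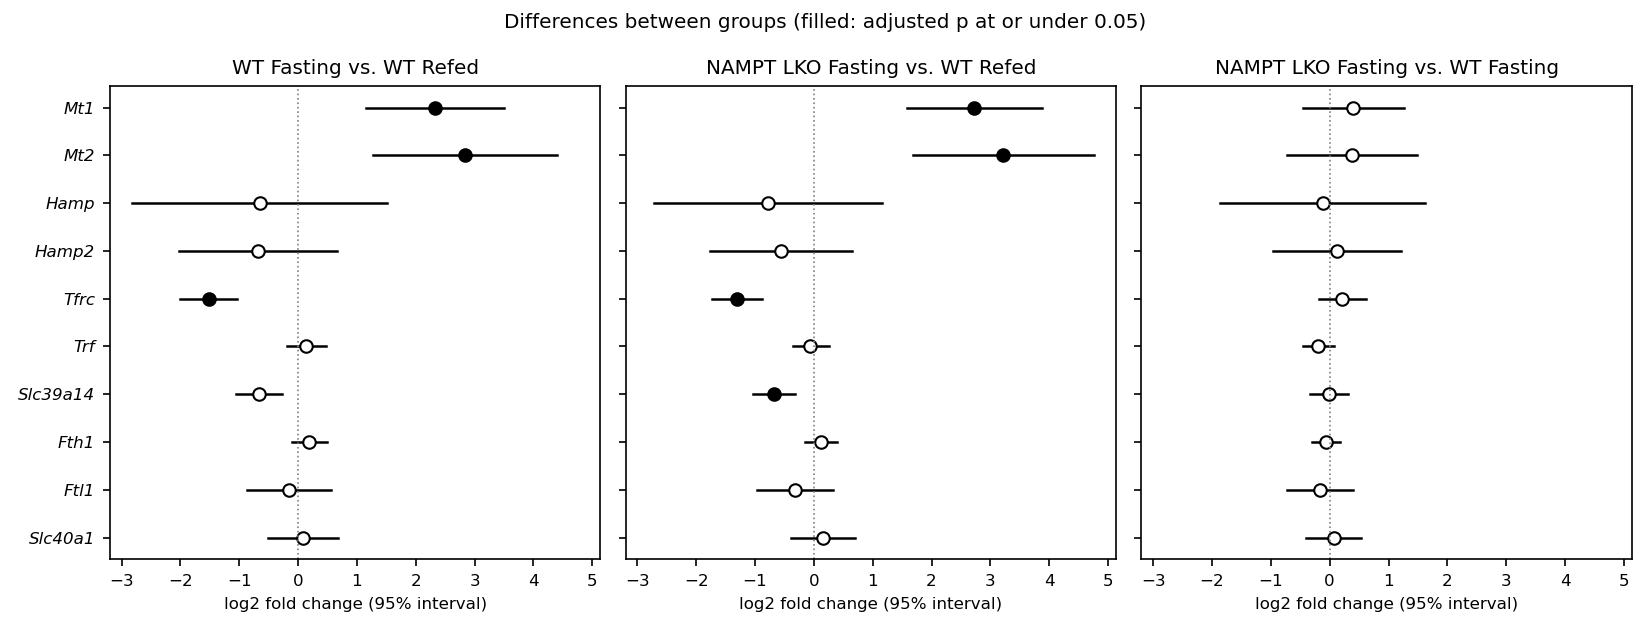
Log2 fold change of each gene in the 3 comparisons, with 95% intervals from the QL fit of edgeR and filled points for an adjusted p at or under 0.05. Mt1, Mt2 and Tfrc are filled in both comparisons with WT Refed livers, Slc39a14 only in NAMPT LKO Fasting vs. WT Refed, and every interval in NAMPT LKO Fasting vs. WT Fasting crosses 0.

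Mt1 and Mt2 encode the metallothioneins of liver and lie side by side on chromosome 8 of GRCm38 (Mt1, ENSMUSG00000031765, 94179089 to 94180325; Mt2, ENSMUSG00000031762, 94172618 to 94173567; both on the plus strand). Mt1 was 35.1 and 35.7 CPM in the WT Refed livers, 139, 219 and 177 CPM in the WT Fasting livers and 195, 128, 493, 135 and 226 CPM in the NAMPT LKO Fasting livers. All 8 fasting livers lay above both refed livers, and NAMPT LKO mouse 3 was the highest. The mean was 178 ± 40.4 CPM (SD, n = 3) in WT Fasting against 35.4 ± 0.469 CPM (SD, n = 2) in WT Refed livers, which gave a log2 fold change of 2.33 (standard error 0.53, 95% interval 1.16 to 3.50, edgeR QL adjusted p = 0.0247), or 5.03-fold. Against WT Refed, NAMPT LKO Fasting livers had a log2 fold change of 2.73 (standard error 0.52, edgeR QL adjusted p = 0.00834), and 2.11 without NAMPT LKO mice 3 and 5.

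Mt2 followed the same pattern at a lower level. It was 10.8 and 13 CPM in the WT Refed livers, 41.8, 86.2 and 128 CPM in the WT Fasting livers and 84.3, 62.3, 270, 70.7 and 68.7 CPM in the NAMPT LKO Fasting livers. The fasting livers again lay above the refed livers without overlap, with the highest value in NAMPT LKO mouse 3. The log2 fold change was 2.84 (standard error 0.71, 95% interval 1.28 to 4.40, edgeR QL adjusted p = 0.0359) in WT Fasting vs. WT Refed, or 7.17-fold. It was 3.22 (standard error 0.70, edgeR QL adjusted p = 0.0155) in NAMPT LKO Fasting vs. WT Refed and 2.61 without NAMPT LKO mice 3 and 5. With either WT Refed liver left out, neither metallothionein was called in either comparison, although the log2 fold changes stayed between 2.31 and 3.35. In WT Fasting vs. WT Refed, both calls were also lost without WT Fasting mouse 2, and that of Mt2 without WT Fasting mouse 3. Per length, Mt1 exceeded Mt2 in all 10 livers, by 1.42-fold in WT Fasting mouse 3 to 3.41-fold in WT Fasting mouse 1. The other genes of the family, Mt3 and Mt4, which are known from brain and squamous epithelium, stayed at or under 0.591 and 0.068 CPM in every liver and were not tested.

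**Figure D3:**
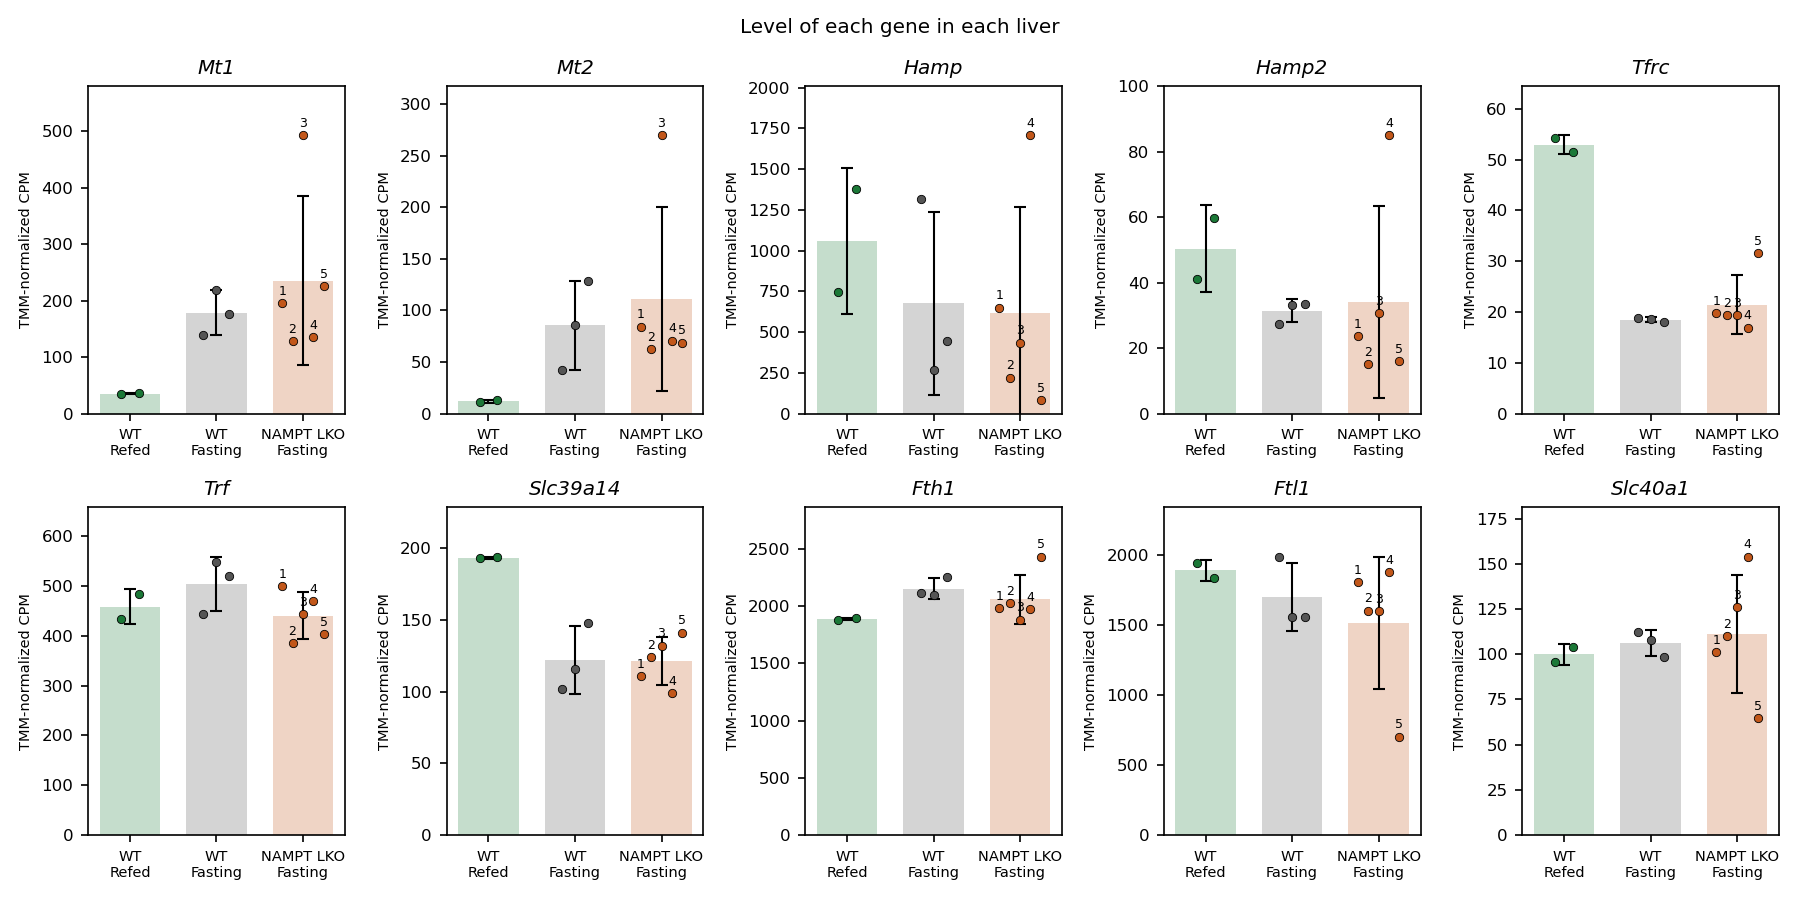
Level of each gene in TMM-normalized CPM in each liver (points), with group means (bars) and SDs (error bars, drawn down to 0 at most) for WT Refed (n = 2), WT Fasting (n = 3) and NAMPT LKO Fasting (n = 5) livers, the last with mouse numbers. Mt1 and Mt2 are higher and Tfrc and Slc39a14 lower in every fasting liver than in both refed livers, Hamp spreads from 83.9 to 1708 CPM within the NAMPT LKO group, and mouse 5 is the low point of Ftl1 at 702 CPM.

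The genes whose pattern over the 10 livers was most like that of Mt1, among 9137 genes averaging 5 CPM or more, were Plg (Pearson r = 0.942 of log2(CPM + 1)), which encodes plasminogen, Sorbs3 (0.932) and Lbp (0.931), which encodes the lipopolysaccharide-binding protein. These r values describe 10 livers in 3 groups, so the group difference enters all of them. Of the 27 tested zinc and copper handling genes, 0 were called higher and 2 lower in WT Fasting vs. WT Refed, beside the 7.04% called of all genes, with a median log2 fold change of 0.01 against 0.04 over all genes tested. The called genes were the zinc importer Slc39a10 (log2 fold change -1.79, adjusted p = 0.00365) and Slc30a5 (-0.67, adjusted p = 0.0455), a zinc transporter of the secretory pathway, both in the QL test of edgeR. More genes of the list were called by limma's voomWithQualityWeights, as given in the last section. Slc30a5 kept its call only without WT Fasting mouse 3 among the 5 fits that left out a library, and Slc39a10 lost its call without WT Refed mouse 2, which left 0 called genes in the list. Slc39a10 was 11.3 and 12.6 CPM in the WT Refed livers, between 2.82 and 4.12 CPM in WT Fasting and between 2.22 and 4.07 CPM in NAMPT LKO Fasting livers, so that no fasting liver reached a refed one. Slc30a1, the zinc exporter that is a classical MTF1 target, had a log2 fold change of -0.43 (edgeR QL adjusted p = 0.292), with all WT Fasting livers below both refed livers. Mtf1 itself had a log2 fold change of -0.43 in WT Fasting vs. WT Refed (adjusted p = 0.0646) and fell by 0.48 on the log2 scale in NAMPT LKO Fasting vs. WT Refed (adjusted p = 0.0214), both in the QL test of edgeR, and the latter call was lost without either WT Refed liver.

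For the remaining known inputs to the metallothionein genes, lists of glucocorticoid response and acute phase genes were examined. The inputs themselves were not measured. Of 14 glucocorticoid response genes, 8 were called higher and 0 lower in WT Fasting vs. WT Refed, beside the 7.04% called of all genes, with a median log2 fold change of 0.96 against 0.04 over all genes. They included Tsc22d3 (GILZ, log2 fold change 1.17, adjusted p = 0.016), Sgk1 (0.96, adjusted p = 0.0355), Per1 (0.72, adjusted p = 0.0399) and Dusp1 (1.54, adjusted p = 0.00704), each in the QL test of edgeR. Several of these, such as Pck1 (1.41), which encodes a key enzyme of gluconeogenesis, are also known to respond to other fasting signals. Fkbp5, a common glucocorticoid marker, had a log2 fold change of 0.20 (edgeR QL adjusted p = 0.819). Whether glucocorticoids have a part in the metallothionein levels was not tested. With either WT Refed liver left out, 1 of the 14 was called. Per1 lost its call with any library of this comparison left out, Sgk1 also without WT Fasting mouse 1 or 2, and Tsc22d3 also without WT Fasting mouse 2. Of 21 acute phase genes, 2 were called higher and 0 lower, beside the same 7.04%, namely Lbp (0.74, adjusted p = 0.0168) and Cebpd (2.03, adjusted p = 0.000733), both in the QL test of edgeR. Lbp lost its call without either WT Refed liver, which left 1 called gene. Serpina3m, with a log2 fold change of -0.54 and all WT Fasting livers below both refed livers, lay at the threshold (edgeR QL adjusted p = 0.0501). A fit of these groups alone called more acute phase genes, as given in the last section. In NAMPT LKO mouse 3, which held the highest Mt1 and Mt2, Saa1 was 3276 CPM and Saa2 was 3153 CPM, while in the other 9 livers they stayed at or under 45.5 and 33.9 CPM. Whether this state of mouse 3 has a part in its metallothionein levels was not tested.

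Hamp levels varied widely between mice of the same group. Hamp (ENSMUSG00000050440, chromosome 7 of GRCm38, 30942371 to 30944017, minus strand) was 744 and 1377 CPM in the WT Refed livers, 1315, 265 and 446 CPM in the WT Fasting livers and 650, 221, 434, 1708 and 83.9 CPM in the NAMPT LKO Fasting livers. The groups overlapped, and the lowest and the highest liver of the study were both NAMPT LKO mice. Its log2 fold change was -0.65 in WT Fasting vs. WT Refed (standard error 0.98, 95% interval -2.82 to 1.51, edgeR QL adjusted p = 0.748) and -0.12 in NAMPT LKO Fasting vs. WT Fasting (standard error 0.79, 95% interval -1.87 to 1.62, edgeR QL adjusted p = 0.98). Intervals of this width leave changes of several-fold in either direction undetected. The former value moved between -1.59 without WT Fasting mouse 1 and -0.15 without WT Refed mouse 2, and the latter between -0.96 without NAMPT LKO mouse 4 and 0.80 without WT Fasting mouse 1.

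Hamp2 (ENSMUSG00000056978, chromosome 7 of GRCm38, 30922372 to 30924181, minus strand), the second mouse hepcidin gene, was 41 and 59.7 CPM in the WT Refed livers, 27.4, 33.2 and 33.6 CPM in the WT Fasting livers and 23.6, 15, 30.6, 85.1 and 15.9 CPM in the NAMPT LKO Fasting livers. The WT Fasting livers lay below both refed livers, and NAMPT LKO mouse 4 lay above every other liver. The log2 fold change of -0.68 in WT Fasting vs. WT Refed did not pass the test (edgeR QL adjusted p = 0.556). In NAMPT LKO Fasting vs. WT Refed it was -0.56 with all livers and -1.24 without NAMPT LKO mouse 4 (edgeR QL adjusted p = 0.575 and 0.0213, respectively), so this single liver decided the call. The 2 hepcidin genes did not keep a fixed ratio. Per length, Hamp exceeded Hamp2 by 5.89-fold in NAMPT LKO mouse 5 and by 53.5-fold in WT Fasting mouse 1, and by 8.9- to 30.7-fold in the other 8 livers. WT Fasting mouse 1 thus held a high Hamp level and the lowest Hamp2 level of its group. Per the study's methods, only reads with a unique and unambiguous alignment were counted. Reads that fit both genes of this similar pair would then be left out, and how many was not measured.

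The gene whose pattern was most like that of Hamp was Smad7 (Pearson r = 0.987 over the 10 livers), the inhibitory SMAD that BMP signalling is known to induce in hepatocytes along with hepcidin. Smad7 was 14.7 and 17.6 CPM in the WT Refed livers, 18.3, 11 and 12.4 CPM in the WT Fasting livers and 12.8, 10.6, 12.4, 20.3 and 6.62 CPM in the NAMPT LKO Fasting livers. Like Hamp, it was highest in NAMPT LKO mouse 4, lowest in NAMPT LKO mouse 5 and highest among WT Fasting livers in mouse 1. Gnpat (0.961) and Ube2a (0.939) came next, with much smaller ranges of 31.6 to 40.5 CPM and 15.8 to 21.3 CPM. The r values are descriptive and were the highest of 9137 computed. NAMPT LKO mouse 5 was the lowest liver for Hamp, Smad7, Gnpat and Ube2a, and its part in the r values was not tested.

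**Figure D4:**
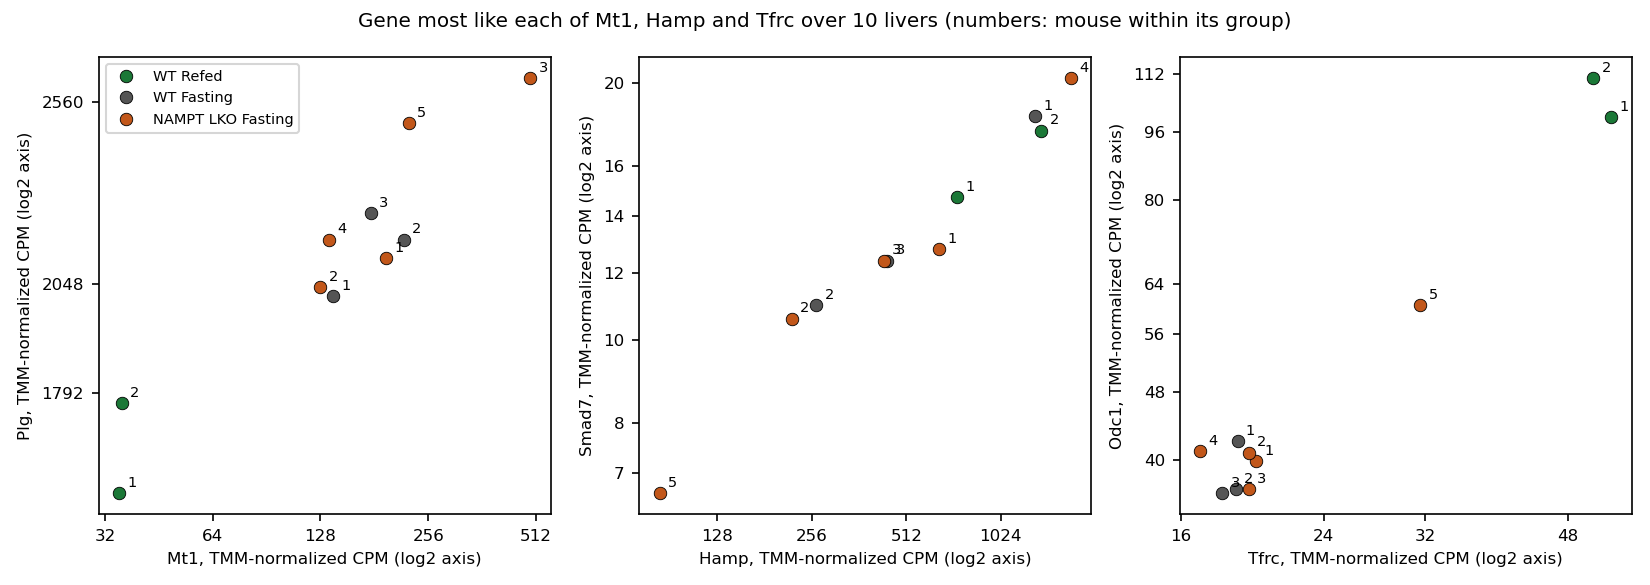
Level in TMM-normalized CPM (log2 axes) of Mt1, Hamp and Tfrc in each of the 10 livers against that of the gene with the highest Pearson r to each, with colours for groups and numbers for mice. Smad7 follows Hamp across all 3 groups (r = 0.987). For Plg with Mt1 (r = 0.942) and Odc1 with Tfrc (r = 0.984), refed and fasting livers do not overlap. Among fasting livers, NAMPT LKO mouse 3 is highest for Plg and Mt1, and mouse 5 for Odc1 and Tfrc.

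Of the 27 tested genes of hepcidin control, 0 were called in WT Fasting vs. WT Refed in the edgeR QL test and 6 had an unadjusted p under 0.05, against 22.3% of all genes, while 1 was called by DESeq2, 1 by edgeR's exact test and 6 by limma's voomWithQualityWeights. The iron-sensing ligand Bmp6 was 4.89 and 5.81 CPM in the WT Refed livers and 8.65, 4.74 and 6.28 CPM in the WT Fasting livers, with overlap. The co-receptor hemojuvelin (Hfe2, log2 fold change -0.16), the iron-sensing partners Hfe (0.00) and Tfr2 (0.32), and the protease Tmprss6 (0.08), which limits hepcidin, had adjusted p-values between 0.474 and 0.992 in the edgeR QL test. The BMP target Id1 was 7.37 and 5.51 CPM in WT Refed livers and 6.71, 3.04 and 8.52 CPM in WT Fasting livers. Id3, another BMP target, was 54 and 65.3 CPM in the WT Refed livers, 15.4, 8.65 and 22.2 CPM in the WT Fasting livers and 16.5, 12.9, 16.3, 30.8 and 4.02 CPM in the NAMPT LKO Fasting livers. All 8 fasting livers lay below both refed livers, and the difference was called in NAMPT LKO Fasting vs. WT Refed (log2 fold change -1.89, adjusted p = 0.0387) but not in WT Fasting vs. WT Refed (-1.95, adjusted p = 0.0743), both in the QL test of edgeR. The call was lost when any of NAMPT LKO mice 1, 2 and 3, WT Fasting mouse 1 or the refed mice was left out, and in a fit of these groups alone (adjusted p = 0.0515). Erfe, the erythroid hormone that lowers hepcidin, was at or under 0.0958 CPM in every liver and was not tested.

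Tfrc (ENSMUSG00000022797, chromosome 16 of GRCm38, 32608920 to 32632794, plus strand), the receptor for iron-laden transferrin, was lower in fasting than in refed livers. It was 54.3 and 51.6 CPM in the WT Refed livers, 18.8, 18.7 and 18 CPM in the WT Fasting livers and 19.8, 19.4, 19.4, 16.9 and 31.6 CPM in the NAMPT LKO Fasting livers. Refed and fasting livers did not overlap, and among the fasting livers NAMPT LKO mouse 5 was the highest. The log2 fold change was -1.52 in WT Fasting vs. WT Refed (standard error 0.22, 95% interval -2.0 to -1.04, edgeR QL adjusted p = 0.00325), or 2.87-fold lower. The value was -1.30 in NAMPT LKO Fasting vs. WT Refed (standard error 0.19, edgeR QL adjusted p = 0.00234), and -1.50 without NAMPT LKO mice 3 and 5. Tfrc was called in both comparisons with each library left out in turn. The genes most like Tfrc were Odc1, Ssr1 and Hsp90b1 (Pearson r = 0.984 each over the 10 livers). Odc1 encodes the enzyme that opens polyamine synthesis, Ssr1 a subunit of the translocon-associated complex and Hsp90b1 the endoplasmic reticulum chaperone GRP94. Hsp90b1 was 1327 and 1308 CPM in the WT Refed livers, 350, 388 and 409 CPM in the WT Fasting livers and 326, 438, 375, 331 and 662 CPM in the NAMPT LKO Fasting livers, and like Tfrc it was highest among fasting livers in mouse 5.

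Slc39a14 (ENSMUSG00000022094, chromosome 14 of GRCm38, 70303469 to 70351425, minus strand) encodes ZIP14, which carries unbound iron, zinc and manganese into hepatocytes. It was 193 and 194 CPM in the WT Refed livers, 102, 116 and 148 CPM in the WT Fasting livers and 111, 124, 132, 98.9 and 141 CPM in the NAMPT LKO Fasting livers. Every fasting liver lay below both refed livers. The log2 fold change of -0.66 in WT Fasting vs. WT Refed (standard error 0.18, 95% interval -1.06 to -0.27) sat at the threshold with an adjusted p of 0.0502 in the edgeR QL test, and passed it with DESeq2, edgeR's exact test, limma's voomWithQualityWeights, 2 other normalizations, no expression filter and a fit of these groups alone, with adjusted p-values between 0.0011 and 0.0481. With single libraries left out, it passed without WT Fasting mouse 3 (edgeR QL adjusted p = 0.0221) and did not pass in the other 4 fits (0.132 to 0.258). It had a log2 fold change of -0.67 in NAMPT LKO Fasting vs. WT Refed (standard error 0.16, edgeR QL adjusted p = 0.0243), a call that was lost without WT Refed mouse 1 (adjusted p = 0.142) or mouse 2 (adjusted p = 0.181). Its homolog Slc39a8, which encodes the related transporter ZIP8, was higher instead in NAMPT LKO Fasting vs. WT Refed (log2 fold change 0.54, edgeR QL adjusted p = 0.0127), also a call lost without either WT Refed liver.

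Trf (ENSMUSG00000032554, chromosome 9 of GRCm38, 103204001 to 103230444, minus strand), the plasma iron carrier made by hepatocytes, was 434 and 483 CPM in the WT Refed livers, 443, 549 and 521 CPM in the WT Fasting livers and between 385 and 500 CPM in the NAMPT LKO Fasting livers. The groups overlapped in each comparison. Its log2 fold change of 0.14 in WT Fasting vs. WT Refed had a 95% interval of -0.19 to 0.47 (edgeR QL adjusted p = 0.64).

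Neither ferritin chain was called in any of the 3 comparisons. Fth1 (ENSMUSG00000024661, chromosome 19 of GRCm38, 9982703 to 9985092, plus strand), the chain that oxidizes iron, was 1879 and 1892 CPM in the WT Refed livers, 2112, 2093 and 2255 CPM in the WT Fasting livers and 1982, 2023, 1880, 1971 and 2433 CPM in the NAMPT LKO Fasting livers. WT Fasting livers lay above the refed livers without overlap, but the log2 fold change of 0.19 did not pass the test (95% interval -0.11 to 0.49, edgeR QL adjusted p = 0.445). Ftl1 (ENSMUSG00000050708, chromosome 7 of GRCm38, 45457944 to 45459884, minus strand), the chain that aids iron mineralization, was 1942 and 1835 CPM in the WT Refed livers, 1981, 1557 and 1557 CPM in the WT Fasting livers and 1805, 1600, 1595, 1873 and 702 CPM in the NAMPT LKO Fasting livers. The groups overlapped, and the single low liver was NAMPT LKO mouse 5. The log2 fold change was -0.15 in WT Fasting vs. WT Refed (95% interval -0.86 to 0.56, edgeR QL adjusted p = 0.826). The ratio of Ftl1 to Fth1 per length was 0.186 in NAMPT LKO mouse 5 and between 0.446 and 0.668 in the other 9 livers. Ftl1-ps1, the most abundant ferritin copy, was between 9.22 and 14.9 CPM and the other copies were at or under 6.5 CPM, and reads lost to or gained from copies were not measured.

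Slc40a1 (ENSMUSG00000025993, chromosome 1 of GRCm38, 45908068 to 45926523, minus strand), the iron exporter ferroportin of hepatocytes and macrophages, was 95.8 and 104 CPM in the WT Refed livers, 112, 108 and 98.2 CPM in the WT Fasting livers and 101, 110, 126, 154 and 64.7 CPM in the NAMPT LKO Fasting livers. The groups overlapped, with the highest and the lowest value in NAMPT LKO mice 4 and 5. The log2 fold change was 0.09 in WT Fasting vs. WT Refed (95% interval -0.51 to 0.68, edgeR QL adjusted p = 0.885).

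Of 32 tested genes of iron transport and heme outside the members, 2 were called higher and 3 lower in WT Fasting vs. WT Refed, beside the 7.04% called of all genes, and 6 had an unadjusted p under 0.05, against 22.3%. More genes of the list were called by limma's voomWithQualityWeights, as given in the last section. The median log2 fold change was 0.09. The lower genes included 2 early enzymes of heme synthesis, Alas1 (log2 fold change -1.48, adjusted p = 0.0137) and Alad (-1.14, adjusted p = 0.0276), both in the QL test of edgeR. Alas1 was 681 and 1161 CPM in the WT Refed livers, 300, 280 and 410 CPM in the WT Fasting livers and between 221 and 444 CPM in the NAMPT LKO Fasting livers, with no overlap between refed and fasting livers. The iron chaperones moved apart, with Pcbp1 lower (-0.63, adjusted p = 0.0413) and Pcbp2 higher (0.64, adjusted p = 0.0048), both in the QL test of edgeR. The iron-regulatory proteins Aco1 (-0.07) and Ireb2 (0.20), the ferritin-degradation receptor Ncoa4 (-0.07) and the ferrireductase Steap3 (-0.03) had adjusted p-values of 0.441 or higher in the edgeR QL test. Leaving out WT Refed mouse 1 left 1 called gene in the list, and leaving out WT Refed mouse 2 left 0. Pcbp1 lost its call with any library of this comparison left out, Alad in 4 of the 5 such fits, and Alas1 without WT Refed mouse 2 or WT Fasting mouse 2. Pcbp2 lost its call without either WT Refed liver, while its log2 fold change stayed between 0.6 and 0.65.

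Of the genes in these lists, the metalloreductase gene Steap2 had the smallest p between the fasting genotypes. It was 3.47 and 4.33 CPM in the WT Refed livers, 7.71, 7.01 and 8.79 CPM in the WT Fasting livers and 17.4, 14.5, 14.7, 11.9 and 12.8 CPM in the NAMPT LKO Fasting livers. The 3 groups did not overlap, with refed livers lowest and NAMPT LKO livers highest. In NAMPT LKO Fasting vs. WT Fasting the log2 fold change was 0.86 (standard error 0.15), with an adjusted p of 0.321 in the edgeR QL test, 0.0836 from limma's voomWithQualityWeights, 0.00303 from edgeR's exact test and 0.000433 from DESeq2. In the edgeR QL test 0 of the 32 genes of the list were called there and 4 had an unadjusted p under 0.05, against 0.00744% and 6.03% of all genes tested. The other 3 were the plasma ferroxidase Cp (log2 fold change 0.35), the heme oxygenase Hmox1 (-0.72) and the biliverdin reductase Blvrb (-0.50), with adjusted p-values between 0.761 and 0.827 in the edgeR QL test. Cp was 875, 882 and 876 CPM in the WT Fasting livers and between 996 and 1235 CPM in the NAMPT LKO Fasting livers, without overlap. Hmox1 was 43.9 CPM in WT Fasting mouse 3, which also had the highest summed Kupffer cell markers, and between 11.3 and 22.9 CPM in the other fasting livers. The part of those cells in its value was not tested.

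For the members themselves, NAMPT LKO Fasting vs. WT Fasting gave log2 fold changes between -0.19 (Trf) and 0.40 (Mt1). The precision differed by gene. The 95% intervals were narrow for Fth1 (-0.30 to 0.17), Trf (-0.46 to 0.07), Slc39a14 (-0.33 to 0.31) and Tfrc (-0.18 to 0.61), wider for Slc40a1 (-0.41 to 0.54), Ftl1 (-0.73 to 0.40) and Mt1 (-0.46 to 1.26), and widest for Mt2 (-0.73 to 1.49), Hamp2 (-0.97 to 1.21) and Hamp (-1.87 to 1.62). The direction for the metallothioneins rested on NAMPT LKO mouse 3, since Mt1 moved from 0.40 to -0.06 and Mt2 from 0.38 to -0.26 without it. The direction for Ftl1 rested on mouse 5, moving from -0.17 to 0.02 without it. Of the tested list genes, 0 were called in the edgeR QL test for hepcidin control, zinc and copper handling, acute phase and glucocorticoid response, where 0, 1, 1 and 5 had an unadjusted p under 0.05, against 6.03% of all genes, and 0 were called by DESeq2, edgeR's exact test or limma's voomWithQualityWeights. These 5 glucocorticoid response genes had lower values in NAMPT LKO Fasting livers, with log2 fold changes of -1.10 (Ddit4), -0.54 (Tsc22d3), -0.47 (Dusp1), -0.42 (Sgk1) and -0.37 (Per1), adjusted p-values of 0.761 to 0.827 in the edgeR QL test, and a median of -0.29 over the 14 genes of the list.

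NAMPT LKO mouse 5 lay outside the range of the other 4 mice of its group for 6 members, and not in a common direction. On the log2 scale against the mean of those 4, it was lower for Hamp (-3.17), Ftl1 (-1.29) and Slc40a1 (-0.92), and higher for Tfrc (0.74), Fth1 (0.31) and Slc39a14 (0.28). For the other 4 members it lay within that range. The GC content of the reference transcripts was lowest for Tfrc (39.8%) and highest for Mt1 and Ftl1 (58.1% each). It was 50.5% for Hamp and 43.5% for Slc40a1, which were lower in mouse 5. For Fth1 and Slc39a14, which were higher there, it was 53.4% and 55.2%. The share of counts from the mitochondrial genome was the highest in mouse 5, and the part of either in these values was not tested.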

How the data were processed

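Liver RNA of 10 mice was measured by RNA-seq. Per the study's methods, the authors selected polyadenylated RNA and sequenced single reads. Per the labels, reads were aligned with STAR 2.5.1a to GRCm38 and counted per Ensembl gene with featureCounts 1.4.6-p5, while the study's methods give other versions of both. Whether counting used strand is not given in the sources used here. The authors deposited raw counts, CPM and RPKM. The deposited CPM are counts scaled to the library total, and the deposited RPKM divide these by exonic length, as checked on the files.

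From the counts on, everything was computed here. TMM normalization and the quasi-likelihood (QL) test were run in edgeR 4.0.16 (1 mean per group, 10 libraries in 1 fit, Benjamini-Hochberg adjustment over 13444 genes above 1 CPM in at least 1 library, ribosomal RNA genes left out) in R 4.3.3. Standard errors came from the quasi-likelihood F. Alternatives were edgeR's exact test, DESeq2 1.42.0, voomWithQualityWeights of limma 3.58.1, other normalizations and filters, a fit restricted to each pair of groups, a block on replicate number, and fits without each library. The script was tested on simulated data. WT Refed mice were numbered in accession order. On what the replicates are, the labels say no more than that each sample is a mouse's liver, so p-values measure the spread between these samples. No replicate libraries held identical values.

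The members and gene lists were chosen with earlier results of these data known. Named genes were all members, key list genes, up to 6 other called genes per list by fold, the 3 genes most like Mt1, Hamp and Tfrc, and copies of members. Id3, Cp, Blvrb, Slc39a8, Serpina3m and the NAMPT LKO values of Steap2 were singled out after their values were seen, and the search for iron-responsive elements was added then too.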

Additional observations from a re-analysis of the deposited data

Results flagged for a closer look

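Within the 5 NAMPT LKO Fasting livers, 15 values (the 10 members and 5 summed gene lists) were checked for a single liver far from the others, by the gap to the nearest liver as a share of the whole range. In 9 of the 15 the share exceeded 0.71, the limit for 5 samples, where chance gives about 1 in 20, but the values are not independent since they come from the same livers. Mouse 3 was the high liver for Mt1 (493 CPM, share 0.731), Mt2 (270 CPM, 0.894) and the summed acute phase genes (41965 CPM, 0.821). Mouse 4 was the high liver for Hamp2 (85.1 CPM, 0.778). Mouse 5 was the high liver for Tfrc (31.6 CPM, 0.804), Fth1 (2433 CPM, 0.741) and the summed zinc and copper handling genes (2115 CPM, 0.717), and the low liver for Ftl1 (702 CPM, 0.762) and the summed hepcidin control genes (1758 CPM, 0.786). The sum of zinc and copper genes was carried by Sod1, which was 1304 CPM in mouse 5 and 846 to 940 CPM in the other 4 mice, and over the rest of that list mouse 5 was the lowest (811 CPM against 870 to 899 CPM).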

How the results depend on the processing

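With each library left out in turn, 1 to 3 members were called in WT Fasting vs. WT Refed and 1 to 5 in NAMPT LKO Fasting vs. WT Refed, where the lone WT Refed liver is assumed to vary like the other groups. The count fell to 1 (Tfrc) without either WT Refed liver in both comparisons, and without WT Fasting mouse 2 in the former. Mt1 and Mt2 lost their calls in WT Fasting vs. WT Refed without WT Refed mouse 1 or 2 or WT Fasting mouse 2, and Mt2 also without WT Fasting mouse 3, while log2 fold changes stayed at 2.15 to 2.47 and 2.42 to 3.16. Tfrc kept its call throughout (-1.56 to -1.49). Other tests, normalizations and filters gave 4 called members in each of these comparisons. In WT Fasting vs. WT Refed, voomWithQualityWeights called 7 zinc and copper handling genes against 2, and 8 iron transport and heme genes against 5, and a fit of these groups alone called 5 acute phase genes against 2. In NAMPT LKO Fasting vs. WT Fasting 0 members were called under any alternative, and the directions of Mt1, Mt2, Hamp, Hamp2, Slc39a14, Ftl1 and Slc40a1 changed under some of them. Leaving out NAMPT LKO mice 3 and 5 together gave -0.22 for Mt1, -0.24 for Mt2, 0.35 for Hamp and 0.05 for Ftl1. limma's voomWithQualityWeights gave -0.17 for Hamp2 and 0.03 for Slc39a14. Leaving out single libraries gave ranges of -0.06 to 0.58 for Mt1, -0.26 to 0.80 for Mt2, -0.96 to 0.80 for Hamp, -0.56 to 0.31 for Hamp2, -0.12 to 0.16 for Slc39a14, -0.25 to 0.02 for Ftl1 and -0.08 to 0.21 for Slc40a1, and of -0.15 to 0.02 for Trf in NAMPT LKO Fasting vs. WT Refed. The cause was not tested. WT Fasting and NAMPT LKO Fasting mice share replicate numbers 1 to 3. Deviations of same-numbered mice correlated at 0.104, 0.0782 and 0.0971, the highest value for each mouse, but nothing else in the labels pairs them. On these 6 libraries, the fit with a replicate block called 0 members and gave -0.49 for Hamp2 and 0.02 for Slc39a14, and the fit with no replicate block called 0 and gave -0.44 and 0.00. With library size in place of TMM, the median log2 fold change of all genes moved by less than 0.1. The 2 WT Refed livers limit every comparison with that group.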
